A study of Mus musculus with 4 samples.

Results

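The stretch of mouse chromosome 7 that holds the Mir290 microRNA cluster was examined in HiChIP libraries of the histone mark H3K27ac from embryonic stem cells. HiChIP joins DNA ends that lie close together in fixed nuclei, enriches them with an antibody and counts the joined read pairs, so that each count is a contact between 2 genomic intervals, called anchors. Every pair of anchors with at least 1 anchor overlapping 3.12 to 3.35 Mb of chromosome 7 (GRCm38) was taken. This gave 158 of the 1513030 anchor pairs and 3 of the 56562 anchors. The 4 libraries came from 4 embryonic stem cell lines, 2 of strain C57BL/6J (B6; line B6 4-1 as replicate 1 and line B6 5-1 as replicate 2) and 2 of strain DBA/2J (D2; line D2 2-9 as replicate 1 and line D2 5-5 as replicate 2). No genotype other than the strain is given. All 4 lines grew in serum medium with LIF and the inhibitors PD0325901 and CHIR99021, were fixed with 1% formaldehyde and were cut with DpnII. Each strain is thus represented by 2 lines and 1 library per line, and the comparison is between the strains.

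The Mir290a to Mir295 genes lie in a row, and those on the plus strand are transcribed as a precursor in early mouse embryos and embryonic stem cells. Their products are among the most abundant microRNAs of these cells and are known for repressing inhibitors of the step from G1 to S phase of the cell cycle. The cluster is flanked by a region described in embryonic stem cells as a super-enhancer, a dense group of enhancers with high H3K27ac. A microRNA recognises its targets mainly through its seed, bases 2 to 8 from its 5′ end. The 3p arms of 6 plus-strand genes are shown because 3 of them carry the seed the cluster is known for. Not shown are miR-292a-3p and the arms of the minus-strand genes Mir290b and Mir292b. RefSeq (GRCm38.p6) gives these sequences, with the seed in capitals:
miR-290a-3p: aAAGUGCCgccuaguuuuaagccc
miR-291a-3p: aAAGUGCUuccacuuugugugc
miR-291b-3p: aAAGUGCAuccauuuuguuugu
miR-293-3p: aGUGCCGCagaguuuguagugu
miR-294-3p: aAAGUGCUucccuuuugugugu
miR-295-3p: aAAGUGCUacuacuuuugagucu

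The seed AAGUGCU is shared by 3 of the 6 arms shown, those of miR-291a, miR-294 and miR-295. The seeds of miR-290a-3p and miR-291b-3p differ from it in their last base alone, and miR-293-3p carries a different one.

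The label of the locus did not match what was counted there. No anchor overlapped any of the microRNA genes, which span chr7:3218626-3220841, and the pairs described here are therefore those of the AU018091 and Cacng7 anchors on the far sides of the cluster. The nearest anchor edge lay 42338 bp before Mir290a, at the end of the AU018091 anchor. Nlrp12, a gene for a receptor of the innate immune system (3218784 to 3249740), and Myadm, which encodes a myeloid-associated membrane protein (3289080 to 3300442), had no anchor over them or over any of their start sites. The nearest anchor edges were 73325 bp from a start site of Nlrp12 and 35322 bp from a start site of Myadm. Since no anchor touched the microRNA genes, the share of counts touching them was 0 in all 4 libraries by the way the table is built, and no limit on their contacts can be drawn from it.

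The stretch without an anchor ran from 3176289 to 3328415, a length of 152127 bp. Gaps between neighbouring anchors had a median of 11218 bp over the table, and 2885 of 56543 gaps (5.10%) were at least as long as this one. The anchor edges that bound it are shown because they mark where counting stops and starts again. In GRCm38, plus strand, with the GATC cut by DpnII in capitals, they read:
end of the AU018091 anchor, chr7:3176275-3176304: tgtcccccttcctGATCctcccatcaccac
start of the Cacng7 anchor, chr7:3328403-3328432: gcagacataagagGATCaggagttcagggt

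The stretch had more unknown sequence than the flanking anchors. GATC sites per kb and the share of windows occurring once were taken over full length, unknown bases included. Lower values of the stretch therefore do not show fewer sites or more repeats in its known sequence. It held 373 GATC sites, or 2.45 per kb, against 2.61 per kb in the AU018091 anchor and 2.62 per kb in the Cacng7 anchor. Its GC content was 46.0%, against 44.05% and 47.1% in the AU018091 and Cacng7 anchors. Of its windows of 75 bases, the read length, 90.1% occurred once in the assembly, against 93% and 97.4% in those anchors. The 2216 bp from Mir290a to Mir295 held 4 GATC sites, with 99.8% of windows occurring once. Unknown bases made up 10197 bp of the stretch, against 100 bp of the AU018091 anchor and 0 of the Cacng7 anchor, and windows with an unknown base were not counted as occurring once. Whether any of these features bears on the absence of an anchor was not tested.

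**Figure D1:**
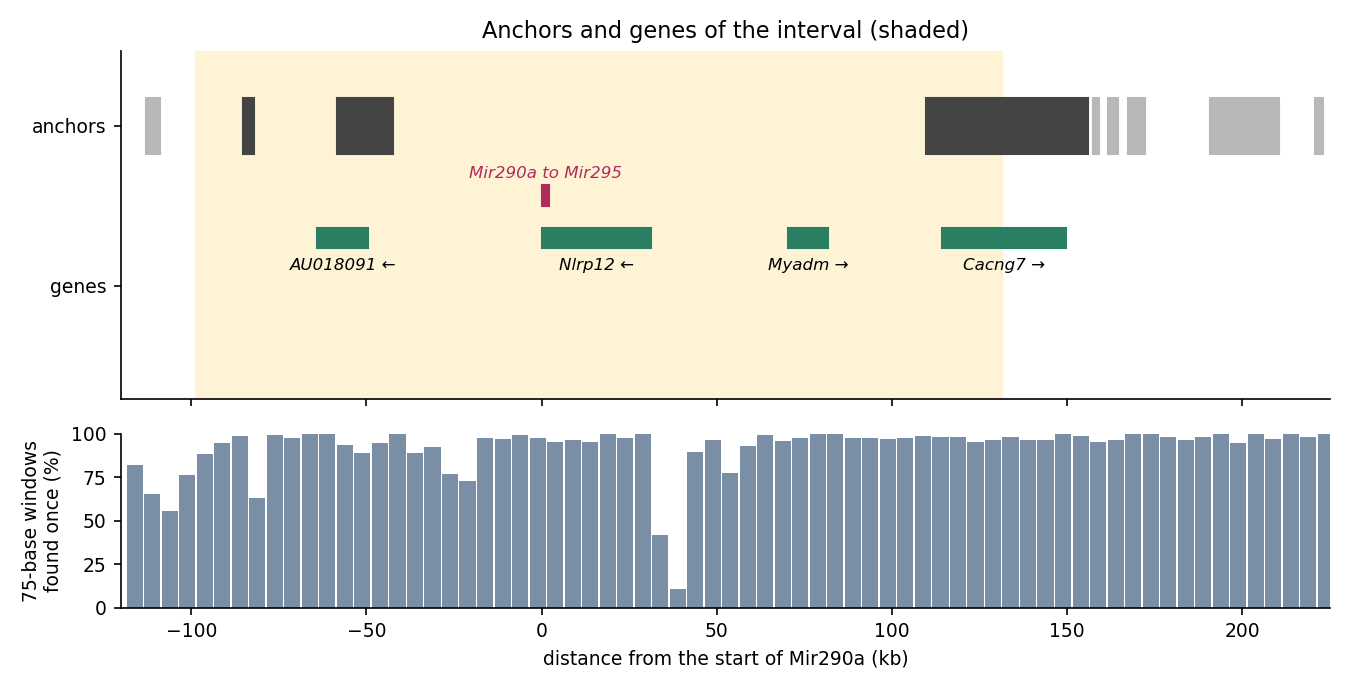
The upper panel places anchors (dark, those of the interval; light, others) and the genes named here along the locus by distance from the start of Mir290a in kb, with the interval shaded. The lower panel gives the share of windows of 75 bases that occur once in the assembly, in percent per bin of 5 kb. The microRNA genes, Nlrp12 and Myadm lie in the stretch of 152127 bp that has no anchor.

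The 3 anchors of the interval differed widely in width and count. The first, at 3133322 to 3136554, lies inside the pseudogene Speer9-ps1 and covers no start site. Its 20 pairs held 13 and 15 counts in the B6 libraries and 11 and 15 in the D2 libraries. The second, at 3160164 to 3176288, covers all 3 annotated start sites of AU018091 and took part in 62 pairs. The B6 libraries gave it 127 and 135 counts and the D2 libraries 168 and 114. The third, at 3328416 to 3374667, covers the start sites of Cacng7, which encodes a gamma subunit that assists calcium channels and AMPA receptors, and those of Gm44256, among others. This Cacng7 anchor took part in 79 pairs. Its level, as counts per 1000000 counts of the library (CPM), was 214.6 and 228.9 for B6 against 226.2 and 196.0 for D2, and 86.6% of the interval's 2849 counts belonged to it.

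The promoter of Cacng7 is shown because it lies inside the anchor that carries most of these contacts. RefSeq (GRCm38.p6) gives the 250 bases before its start at chr7:3332575-3332824, plus strand, with CG dinucleotides in capitals:
Cacng7 promoter: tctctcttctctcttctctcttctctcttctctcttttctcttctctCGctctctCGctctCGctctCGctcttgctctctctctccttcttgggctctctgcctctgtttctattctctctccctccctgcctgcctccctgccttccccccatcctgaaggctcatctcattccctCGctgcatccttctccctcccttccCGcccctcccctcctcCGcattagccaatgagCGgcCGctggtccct

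The sequence held 9 CG dinucleotides at a GC content of 58%, and 40.3% of the 32851 promoters of that table held at least as many over the same length. The octamer ATGCAAAT, the letters recognised by Oct4 and its relatives, was searched on both strands over the full promoter windows. It was in 1.74% of all promoters and in none of those listed for Cacng7, Nlrp12, Myadm, Cacng6 and Cacng8. GATC was in 48.0% of all promoters, in all 4 listed for Myadm, and in none listed for Cacng7 or Nlrp12.

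Library totals ran from 2767882 to 2944258 counts. In the library names, 10cyc stands for D2 replicate 1 and 8cyc for the other libraries, and the labels do not explain either mark. As a check of the labelled cell type, 8 of 10 embryonic stem cell markers had an anchor over a start site (Esrrb and Tfcp2l1 had none), with summed levels of 1905 to 3012 CPM and the highest in D2 replicate 1. The other lists summed to lower levels: 143 to 168 CPM for primed epiblast (4 of 4 genes with an anchor), 162 to 185 CPM for trophoblast (3 of 4), 61.1 to 71.0 CPM for extraembryonic endoderm (4 of 4) and 4.70 to 10.3 CPM for fibroblast feeder cells (2 of 5, with Col1a1, Col1a2 and Col6a1 lacking one). These are levels of contacts and not of RNA. Their part in the results was not tested.

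The Cacng7 anchor is among the widest of the table, at the 99.7th percentile of width, and its summed count was at the 97.9th percentile. Per kb of width its level was 4.79 CPM in B6 and 4.56 CPM in D2. The anchors over the start sites of the pluripotency factor genes Sox2, Klf4 and Nanog held 5.71, 6.29 and 17.3 CPM per kb over the 4 libraries. These values pool the strains and do not rank the anchors within a strain. Mean sums in B6 and D2 were 193 and 287 CPM for Sox2, 133 and 113 for Klf4, and 507 and 784 for Nanog. D2 replicate 1 was the highest library for Sox2 (332 CPM) and Nanog (981 CPM) but not for Klf4. Among 422 other anchors within 20% of its width, a comparison chosen after the data were seen, the median count was 3338.5 against its 2468, and the median number of pairs was 112.5 against its 79. The first known base of chromosome 7 is at 3000001, so the reach toward the start is shorter than that toward the end. From the Cacng7 anchor, 74 pairs with 2258 counts ran toward the end of the chromosome and 5 pairs with 210 counts toward its start.

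The most frequent contact of the interval joined the Cacng7 anchor to the anchor over Cacng6, a neighbouring gene of the same channel subunit family, and the long noncoding RNA 3300002P13Rik. The 2 anchors are 67.7 kb apart (partner at 3409405 to 3429152). B6 gave 134 and 141 counts and D2 gave 131 and 132, or 48.2 ± 3.02 CPM and 46.1 ± 1.76 CPM (SD, n = 2 each). The 4 libraries lay close together, and the strains overlapped. This pair held 21.8% of the counts of the Cacng7 anchor. It was 32.2 ± 0.718 times (B6) and 29.1 ± 0.402 times (D2) the mean of all listed pairs at a like distance (SD, n = 2 each). That mean covers anchors of every width, and these 2 anchors are 46251 and 19747 bp wide. The part of width in this and the later ratios to a distance mean was not tested.

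The AU018091 and Cacng7 anchors were themselves the second most frequent pair. This contact spans the microRNA genes, Nlrp12 and Myadm over 183.3 kb. It had 40 and 45 counts for B6 against 64 and 44 for D2, or 14.9 ± 1.64 CPM and 19.0 ± 5.78 CPM (SD, n = 2 each). D2 replicate 1 was the highest, and the other D2 library lay between the B6 libraries. The pair stood 16.2 ± 1.07 times (B6) and 20.3 ± 6.16 times (D2) the mean of listed pairs at a like distance. AU018091 also met the Cacng6 anchor, 251.1 kb away, with 14 and 18 counts in B6 and 21 and 13 in D2. These were the only pairs of AU018091 with at least 20 counts over the 4 libraries, so the contacts of AU018091 that could be tested were those with the Cacng7 and Cacng6 anchors.

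Of the remaining pairs among the 10 with the most counts, 3 joined the Cacng7 anchor to short anchors beside it. The anchor at 3380212 to 3383286, within Gm44257, had 43 and 31 counts in B6 and 37 and 35 in D2. The anchor over the start sites of Cacng8 and Gm44257 (3386004 to 3390826) had 22 and 42 counts in B6 and 31 and 35 in D2. Cacng8 encodes a further gamma subunit of the same family, so the Cacng7 anchor had well-filled pairs with the anchors of both neighbouring family members. The anchor at 3376084 to 3377644, which covers no start site, had 33 and 21 counts in B6 and 43 and 29 in D2. In each of these 3 pairs the ranges of the strains overlapped.

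Contacts of the Cacng7 anchor also reached far along the chromosome. The pair with the anchor over Leng8, Leng9, Ttyh1 and Cdc42ep5 (4130233 to 4166619), 796.9 kb away, had 20 and 20 counts in B6 and 19 and 18 in D2, which put both D2 libraries just below both B6 libraries in CPM. That was 28.9 ± 2.25 times (B6) and 30.1 ± 3.46 times (D2) the mean at that distance (SD, n = 2 each). The pair with Rpl28, a ribosomal protein gene, and Ube2s, which encodes a ubiquitin-conjugating enzyme (4786584 to 4827927), spans 1455.7 kb and had 20 and 21 counts in B6 and 14 and 11 in D2. It stood 36.2 ± 3.83 times (B6) and 24.6 ± 5.87 times (D2) the mean, with both D2 libraries lower than both B6 libraries. Both far partners are wide anchors, of 36386 bp over Leng8 and 41343 bp over Rpl28, and the mean covers anchors of every width. Nearer partners were Cnot3, a subunit of the CCR4-NOT complex that removes poly(A) tails (294.7 kb; 12 and 20 counts in B6, 26 and 11 in D2), and an anchor within an exon of Gm35037 (123.6 kb; 14 and 28 in B6, 8 and 16 in D2). In both of these the strains overlapped.

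**Figure D2:**
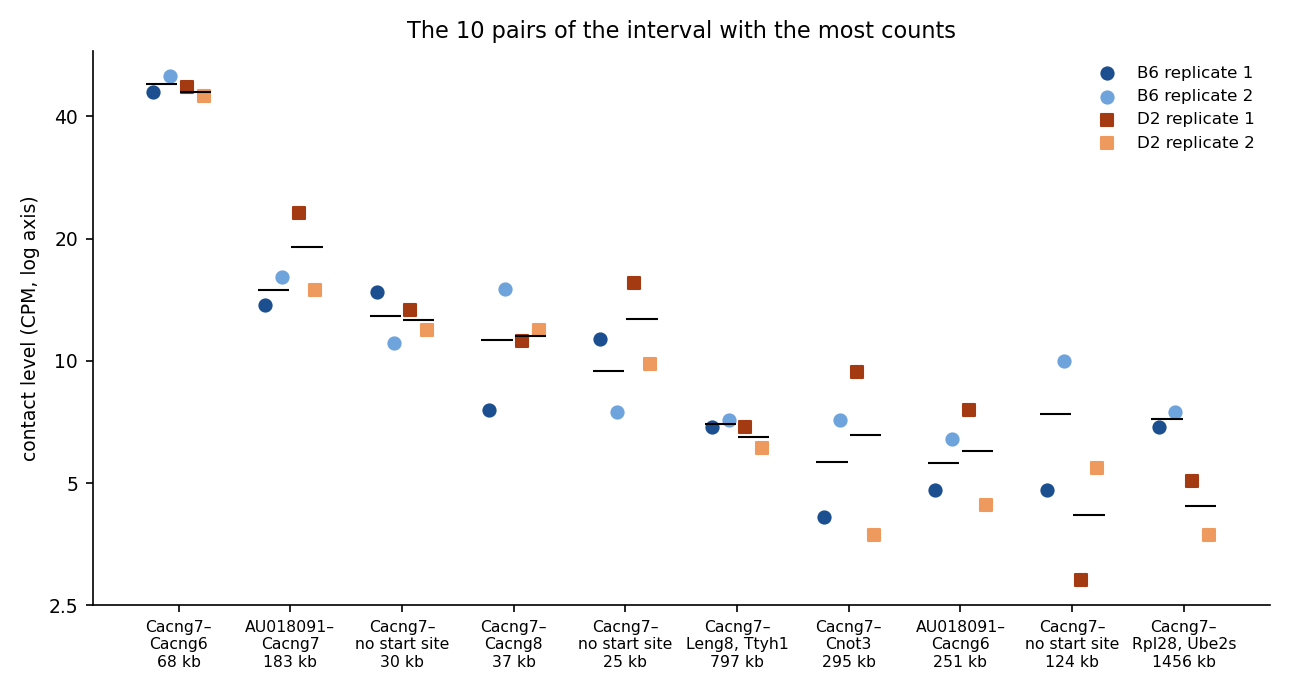
Contact level in CPM (log axis) of the 10 pairs of the interval with the most counts, 1 point per library (circles B6, squares D2) with a line at each strain mean. The pair of the Cacng7 and Cacng6 anchors stands above the rest at 48.2 CPM in B6 and 46.1 CPM in D2. The strains do not overlap in the pairs with Rpl28 and, narrowly, with Leng8 (20 and 20 counts against 19 and 18). Of all tested pairs in the table, 41.7% do not overlap.

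By distance, the contacts of the Cacng7 anchor differed in their spread from the table as a whole. The shares up to 50 kb and from 300 to 1000 kb were lower, and those from 50 to 100 kb and beyond 1000 kb were higher. Shares below 1000 kb were not compared with anchors of like width. Distances run between midpoints, and the Cacng7 anchor, 46251 bp wide, had its nearest pair at 25.3 kb. Pairs up to 50 kb made up 15.2% ± 0.736 of its counts in B6 and 17.4% ± 0.406 in D2, against 30.6% and 32.3% of all counts of the table. Pairs of 50 to 100 kb, which include the Cacng6 contact, made up 25.8% and 26.5% against 15.2% and 16.0%. Pairs of 100 to 300 kb made up 23.9% and 24.0% against 25.4% and 25.6%, and pairs of 300 to 1000 kb made up 14.6% and 12.6% against 21.1% and 19.1%. Pairs of 1000 to 2000 kb made up 20.6% ± 0.391 in B6 and 19.4% ± 1.23 in D2, against 7.63% and 6.94%. Over the 4 libraries together 20.0% of its counts were beyond 1000 kb, where the median of the 422 anchors of like width was 6.99%, which placed it at the 92.7th percentile of them. Between the partner over Rps9 at 355.7 kb and that over Ttyh1 at 771.5 kb, where the paired immune receptor genes Pira2, Pirb and Lilra6 lie without an anchor at their start sites, 5 pairs gave 16 counts in all.

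**Figure D3:**
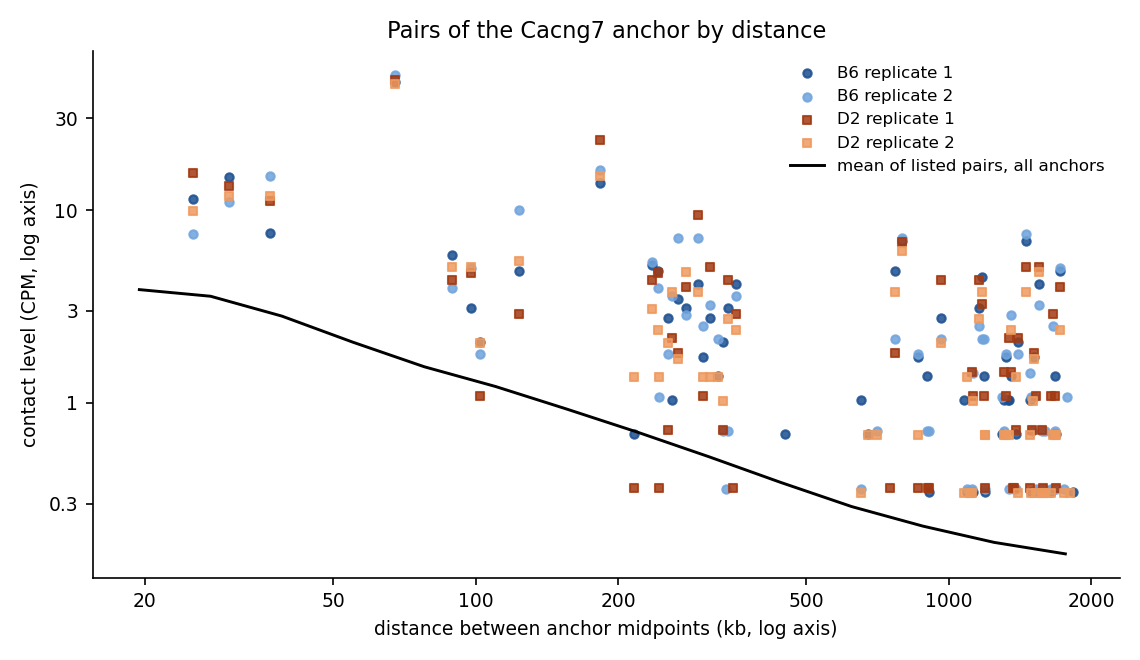
Contact level in CPM against the distance between anchor midpoints in kb (both axes logarithmic) for every pair of the Cacng7 anchor, 1 point per library with a count (circles B6, squares D2). The line is the mean of all listed pairs of the table by distance, whatever the width of their anchors. Points at about 797 and 1456 kb, the pairs with Leng8 and Rpl28, sit well above the line, and few pairs lie between 355.7 and 771.5 kb.

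The interval had 77 partner anchors outside it, 74 of them toward the end of the chromosome. Of the 77, 41 covered at least 1 start site and held 69.1% of the counts to partners. Wide anchors are among these 41, such as those over Rpl28 (41343 bp) and Leng8 (36386 bp). No such share over all anchors is set beside these values, so no preference for start sites is read from them. Among 79 protein-coding genes from AU018091 and its neighbours to the far end of the reach of the pairs, 53 had a start site under an anchor, 50 of them under a partner. The 26 without one included Nlrp12 and Myadm, the immune receptor genes Pira2, Pirb, Lilra5, Lilra6, Tarm1 and Ncr1, the vomeronasal receptor genes Vmn1r55, Vmn1r56 and Vmn1r57, and genes of other kinds such as Il11, Sbk2, Sbk3 and Ptprh. Over all 20780 protein-coding genes of the annotation, 67.3% had a start site under an anchor. Some further pairs of the Cacng7 anchor are given as examples picked by hand rather than by count, and no shared function is read from them. Rps9, a ribosomal protein gene, had 12 and 10 counts in B6 and 8 and 7 in D2. Prpf31, a splicing factor gene that shares its anchor with Tfpt, had 9 and 8 in B6 and 11 and 14 in D2. The anchor over Dnaaf3 and the troponin gene Tnni3 had 13 and 6 counts in B6 and 9 and 11 in D2.

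The share of a library's counts that fell to the interval was 0.0246% and 0.0266% in B6 and 0.0266% and 0.0222% in D2. The means were 0.0256% ± 0.00137 and 0.0244% ± 0.00307 (SD, n = 2 each), a log2 ratio of -0.070, with an exact two-sided permutation p of 0.667. Of the interval's counts, pairs with both anchors inside it made up 6.70% and 6.32% in B6 and 9.52% and 7.95% in D2. Both D2 libraries were higher here (8.74% ± 1.11 against 6.51% ± 0.273, a log2 ratio of 0.42), and the exact two-sided permutation p of 0.33 is the smallest that 2 libraries against 2 allow.

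No pair of the interval passed the test of D2 against B6. Tests used edgeR's quasi-likelihood test over the whole table with Benjamini-Hochberg adjustment, and a pair was tested where it had at least 20 counts over the 4 libraries. This held for 29 of the 158 pairs, with 77.1% of the interval's counts; the other 129 had a median of 3 counts. Of the 29, 0 had an adjusted p under 0.05, where 1.45% of all tested pairs did. An unadjusted p under 0.05 was found for 3 of 29, against 11.7% of all tested pairs, and DESeq2 called 0 (0.0889% of all tested pairs) and gave 0 with an unadjusted p under 0.05. The fitted values were above 0 in 13 and below 0 in 16, from -1.63 to 0.79, with a median of -0.10 where that of all tested pairs was 0.018. In 8 of 29 (27.6%) the CPM of the strains did not overlap, against 41.7% of all tested pairs.

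For the pair with the most counts, Cacng7 with Cacng6, the log2 ratio of D2 over B6 was -0.13 (SE 0.22, adjusted p = 0.894 by edgeR). For AU018091 with Cacng7 it was 0.28 (SE 0.27, adjusted p = 0.760 by edgeR), and it was -0.058 without D2 replicate 1. The lower D2 counts with Rpl28 gave -0.77 (SE 0.39, unadjusted p = 0.0483 and adjusted p = 0.420 by edgeR), and those with the Gm35037 exon gave -0.87 (SE 0.40, unadjusted p = 0.0268 and adjusted p = 0.33 by edgeR), which moved to -0.27 without B6 replicate 2 and to -1.41 without D2 replicate 2. The farthest from 0 was the pair of the Cacng7 anchor with the anchor over Ndufa3, a subunit of respiratory complex I, and Oscar, a receptor of osteoclasts (3615865 to 3623563, 268.2 kb away), which was singled out after its values were seen. It had 10 and 20 counts in B6 and 5 and 5 in D2, with a log2 ratio of -1.63 (SE 0.53, unadjusted p = 0.00171 and adjusted p = 0.0829 by edgeR). Over the alternatives its adjusted p ran from 0.0820 to 0.809, and leaving out each library moved the log2 ratio from -2.07 (without B6 replicate 1) to -1.03 (without B6 replicate 2). Of the 29 tested pairs, 10 had a 95% interval of the log2 ratio that lay within a 2-fold change either way, so for the other 19 a 2-fold difference was not excluded at this depth.

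Summed over all its pairs, the Cacng7 anchor reached 222 ± 10.1 CPM for B6 against 211 ± 21.3 CPM for D2 (SD, n = 2 each). The log2 ratio was -0.030 (SE 0.17, 95% interval -0.37 to 0.31, adjusted p = 0.947 by edgeR). AU018091 reached 45.9 ± 3.20 CPM for B6 against 49.7 ± 15.5 CPM for D2, with D2 replicate 1 the highest and D2 replicate 2 the lowest of the 4. Its log2 ratio was 0.15 (SE 0.18, 95% interval -0.22 to 0.52, adjusted p = 0.700 by edgeR). It was 0.50 (adjusted p = 0.0392 by edgeR) without D2 replicate 2 and -0.27 without D2 replicate 1. The Speer9-ps1 anchor had a log2 ratio of -0.074 (SE 0.42, 95% interval -0.92 to 0.77, adjusted p = 0.946 by edgeR). Thus 0 of the 3 anchors were called, where 9.75% of all 51820 tested anchors were (2.67% higher and 7.08% lower in D2).

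**Figure D4:**
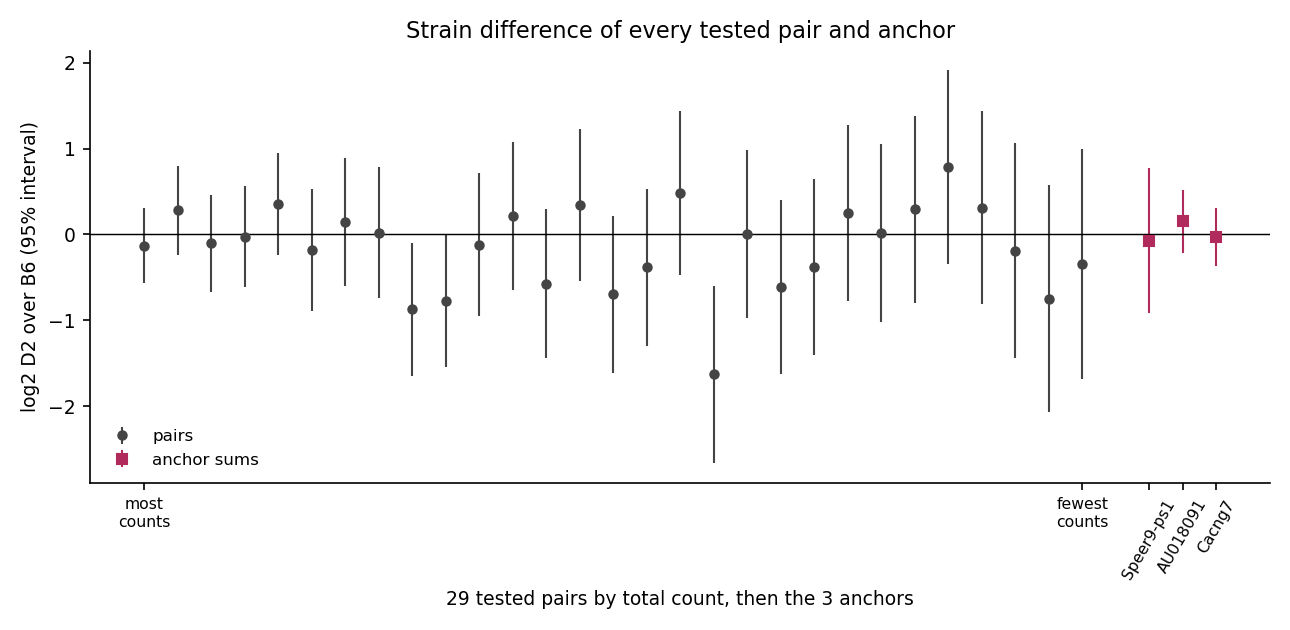
Log2 ratio of D2 over B6 with its 95% interval for the 29 tested pairs, ordered by total count (circles), and for the sums of the 3 anchors (squares). The pairs run from -1.63 to 0.79 and the 3 anchors from -0.074 to 0.15, and no value passed the test.

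The authors' values, taken as q-values, were under 0.01 for 59 and 64 of the 158 pairs in the B6 libraries and for 56 and 60 in the D2 libraries. All 4 libraries shared 32 such pairs, of which 27 belonged to the Cacng7 anchor and 6 to the AU018091 anchor, the pair between them counting for both. Both B6 libraries but neither D2 library had 2 such pairs, and the reverse was true of 0. Those 2 pairs held few counts: 4 and 2 for one and 2 and 3 for the other in B6, and 0 in D2. The Speer9-ps1 anchor had 1 and 2 such pairs in B6 and 0 and 0 in D2. These values were used as a description, with no test. No share over all listed pairs is given beside them, so neither a strain difference nor the strength of a contact is read from them. The value did not follow the count alone. A Cacng7 pair at 102.0 kb had 20 counts over the libraries and no value under 0.01 in any of them. Another, at 1333.4 kb, had 3 counts, all in B6 replicate 1, and a value of 1.5e-06 there.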

How the data were processed

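The deposited series table holds raw counts of read pairs per anchor pair, 1 column per library; the single-library files repeat each nonzero count and add a value from 0 to 1, taken as the q-value the authors' loop caller gave, in a column without a header. HiC-Pro 2.11.4, DESeq2 and the build mm10 are named per the submitters' processing notes, without their role. The loop caller, and whether D2 reads were aligned to the B6-derived reference alone, are not given in the sources used here; the part of that alignment in strain differences was not tested. Every anchor began and ended at GATC in GRCm38. Genes are those of GENCODE M21.

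Counts were tested with edgeR 4.0.16 (limma 3.58.1, R 4.3.3; TMM, strain only, at least 20 counts over the 4 libraries; Benjamini-Hochberg over all tested pairs or anchors) after a run on simulated data, with DESeq2 1.42.0 as an alternative. Anchor counts are sums over an anchor's pairs. A distance mean is that of all listed pairs in the same log2 distance bin of the library, over pairs from 5000 to 1999998 bp. Named pairs were the 10 with the most counts and any called. Outside this rule, the pair with Ndufa3 was singled out after its values were seen. Those with Rps9, Prpf31 and Tnni3, and the examples given for q-values, were picked by hand. Named anchors were those of the interval and the called partners. Members and lists were chosen with earlier results of these data known. Replicate numbers did not pair the lines. The squared difference between replicates was on average 1.09 times (B6) and 1.34 times (D2) that expected from counting noise.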

Additional observations from a re-analysis of the deposited data

How the results depend on the processing

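Of the pairs of the interval, 0 were called under all 11 alternatives run. These were DESeq2's size factors, DESeq2's Wald test, no count minimum, at least 50 counts, totals of chromosome 7, totals within distance bins, the replicate number as a block, and leaving out each library. DESeq2 gave no adjusted p for 24 of the 29 pairs. With the replicate block, 0 pairs and 0 anchors of the interval were called; the correlation of same-numbered deviations was -0.00198 over pairs and 0.00943 over anchors, and the block gave 1343 called pairs in the table where the fit without it gave 1565. The count of interval anchors called ran from 0 to 1 when a library was left out (1, AU018091, without D2 replicate 2).

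Directions near 0 turned. The Cacng8 pair was 0.052 with no count minimum and 0.021 with chromosome 7 totals, the Leng8 pair 0.060 with distance bins, the AU018091 to Cacng6 pair -0.047 at 50 counts or more, and the Cacng7 anchor 0.015 with chromosome 7 totals. Leaving out each library gave log2 ratios from -0.058 to 0.56 for AU018091 with Cacng7, -0.30 to 0.12 for the anchor at 3380212, -0.44 to 0.53 for Cacng8, -0.0038 to 0.68 for the anchor at 3376084, -0.64 to 0.66 for Cnot3, -0.40 to 0.36 for AU018091 with Cacng6, -0.21 to 0.037 for the Speer9-ps1 anchor, -0.27 to 0.50 for AU018091, -0.20 to 0.13 for the Cacng7 anchor, and -0.20 to 0.053 for the interval's share of the library. The log2 ratio of the within-interval share ran from 0.29 to 0.55. Its direction could not turn, since both D2 libraries were above both B6 libraries. With 2 libraries per strain and a median of 3 counts in the untested pairs, most pairs of the interval hold too few counts for a test.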

Other observations

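Anchors that met the interval rarely, but differ between the strains over all their own pairs, were found among the 77 partners. Of the 75 that were tested, 5 (6.67%) passed edgeR's quasi-likelihood test after Benjamini-Hochberg adjustment, against 9.75% of all tested anchors: 1 was higher in D2 and 4 were lower. The median log2 ratio was 0.10 over the 74 with a fitted value, and 0.072 with the remaining anchor at its bound. An anchor over an exon of Lair1, an inhibitory receptor of leukocytes (4001933 to 4006695), had 49 and 68 counts for B6 against 118 and 86 for D2 (log2 0.84, SE 0.21, adjusted p = 0.00517 by edgeR). An anchor within Sbk2 (4947802 to 4952258) had 188 and 187 counts for B6 against 92 and 112 for D2 (log2 -0.85, SE 0.17, adjusted p = 0.000321 by edgeR), and it passed under each alternative run. The anchor over the start site of Isoc2a (4874832 to 4880167) had 219 and 218 counts for B6 against 153 and 140 for D2 (log2 -0.54, adjusted p = 0.0260 by edgeR). The anchor over an exon of Epn1, an endocytosis gene (5097379 to 5101757), had 120 and 105 for B6 against 66 and 84 for D2 (log2 -0.55, adjusted p = 0.0445 by edgeR).

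The anchor at 3800406 to 3806308, which overlaps no gene and lies 775 bp from the nearest start site, that of Gm15925, had 68 and 48 counts in B6 and 0 in both D2 libraries. It was at least 38.7-fold higher in B6, with the floor set at 3 counts over the D2 libraries together. Of its counts, 4 and 1 in B6 were with the interval.

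Lair1 lost its call without B6 replicate 1 (log2 0.61), without D2 replicate 1 (0.49), with no count minimum (0.84) and with DESeq2 (0.86). Isoc2a lost it without B6 replicate 1 (-0.55), B6 replicate 2 (-0.53) or D2 replicate 2 (-0.37), with no count minimum (-0.54) and with DESeq2 (-0.52). Epn1 lost it without B6 replicate 1 (-0.47), B6 replicate 2 (-0.64) or D2 replicate 1 (-0.49), with DESeq2's size factors (-0.54), with no count minimum (-0.56) and with DESeq2 (-0.54). Adjusted p over the alternatives ran from 7.6e-06 to 0.317 for Lair1, from 0.0120 to 0.335 for Isoc2a, from 3.6e-05 to 0.0313 for Sbk2 and from 0.0363 to 0.515 for Epn1.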
